A study of Mus musculus with 47 samples.

Results

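Basal mammary epithelial cells were followed from early lactation (L3, lactation day 3) to established lactation (L10, lactation day 10). The members are the basal RNA-seq libraries of these time points, chosen by cell type and time point alone, and number 5 of the 46 libraries with values. There were 3 at L3 (replicates 4, 5 and 6) and 2 at L10 (replicates 5 and 6). The 6 luminal libraries of the same days are used for comparison.

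All libraries came from lactating FVB/N mice, an inbred strain, and the labels name no other allele and no treatment. Glands of several mice were pooled for each sort, so a replicate is a pool and not an animal. Cells negative for the lineage markers (CD11b, CD45, Ly-6G/C, Ter-119, CD31 and CD140a) were gated as CD24+ CD29hi for the basal and CD24+ CD29lo for the luminal subtype. The gates were adjusted slightly at each sort, and the study's methods give a low yield of RNA as the reason for 2 basal libraries at L10. All 3 L3 libraries were sequenced in lane 7 and both L10 libraries in lane 8, so lane and time point cannot be told apart; the RNA of all 5 was amplified in batch 5. Among the basal libraries, replicate 5 of L3 and of L10 share a sort date and no other pair across the days does; basal and luminal libraries of the same day and number come from the same sort date.

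Basal cells are mostly myoepithelial. They form a contractile mesh around the milk-producing luminal cells, and oxytocin, acting through its receptor Oxtr, makes them shorten and eject milk. They also lay down the basement membrane on which the alveolus rests, and express keratins 5 and 14 together with the smooth muscle forms of actin and myosin.

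The basal libraries held between 9625119 reads (L3 replicate 5) and 14028675 reads (L3 replicate 4) on genes, and L10 replicates 5 and 6 held 13128473 and 13779302. Values are CPM, reads scaled by the authors to the effective size of each library, and 3 reads corresponded to 0.241 to 0.381 CPM. Amplified reads include copies of a molecule, so this lower limit accounts for the counting of reads and for nothing else. L10 replicate 6 stood apart from the other libraries. It had no read for 2402 of the 17078 genes (14.1%), against 887, 1532 and 1016 genes at L3 and 1005 in L10 replicate 5. At an equal depth of 9625119 reads it would show 14164 genes, and the other 4 would show between 15226 and 15804. Its correlation with the remaining basal libraries on log2(CPM + 1) ranged from 0.91 to 0.934, where all other pairs lay between 0.933 and 0.952. No pair of libraries held identical values.

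**Figure D1:**
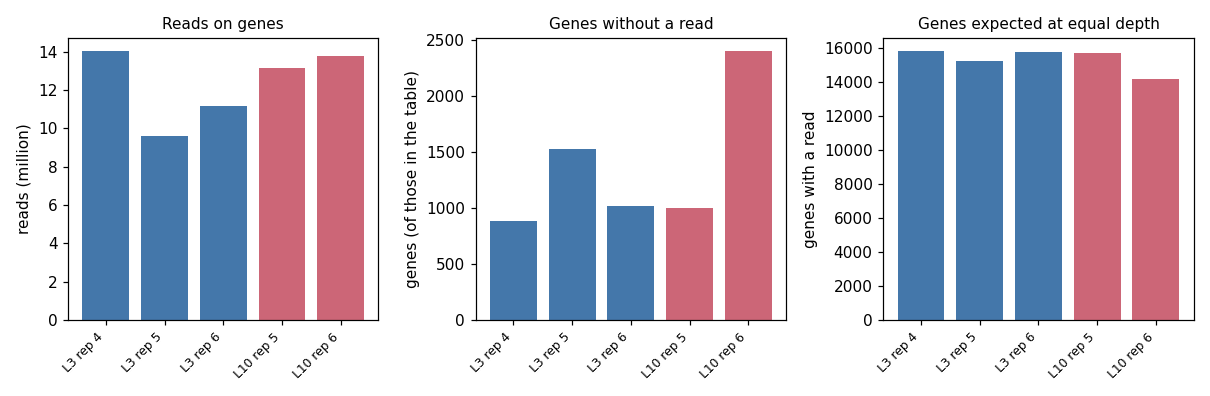
Sequencing depth and gene detection in the 5 basal libraries (L3 blue, L10 red): reads on genes, genes without a read, and genes expected to have a read at the depth of the shallowest library. L10 replicate 6 has 2402 genes without a read although its depth is close to that of L10 replicate 5.

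The sorted cells carried the defining markers of the basal layer at both time points. *Krt5* was measured at 3849, 3583 and 1403 CPM at L3 and at 3417 and 2264 CPM at L10, and the groups overlap. In luminal libraries its mean was 252 CPM at L3 and 508 CPM at L10. *Acta2*, smooth muscle actin, was among the most abundant transcripts, with 29688, 24157 and 12014 CPM at L3 and 17766 and 16996 CPM at L10, against a luminal mean of 120 and 94.2 CPM. *Oxtr* reached 4323, 3617 and 1486 CPM at L3 and 2652 and 2932 CPM at L10. *Trp63*, the transcription factor that maintains basal identity, was measured at 755, 624 and 559 CPM at L3 and at 457 and 513 CPM at L10. Its L10 values lie below all L3 values, and the log2 difference of -0.40 ± 0.76 (SE) did not pass the test (adjusted p = 0.85, limma). That SE comes from all 46 libraries, which include groups where the gene varied widely, such as basal cells at involution day 2 (13.3 ± 11.9 CPM, SD, n = 3). *Krt14* (log2 difference -0.48, adjusted p = 0.80), *Krt17* (0.06, adjusted p = 0.99), *Snai2* (0.33, adjusted p = 0.84) and *Myh11* (-0.05, adjusted p = 0.99) did not pass the test either. Across the 28 genes of basal identity none was called, where 1.14% of all genes were called. Their median log2 difference was -0.21, beside -0.04 over all genes. It went from -0.43 without L3 replicate 6 to 0.016 without L3 replicate 5, and was -0.05 without L3 replicate 4 or L10 replicate 5.

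To ask which transcripts separate established from early lactation, L10 was compared with L3 in basal cells over all 17078 genes. Each gene was fitted with limma on log2(CPM + 1) with 46 libraries sharing an estimate of the spread, and calls required a change of 2-fold or more with a Benjamini-Hochberg adjusted p (FDR) under 0.01. At L10, 78 genes were called higher (0.457% of those tested) and 116 were called lower (0.679%), or 1.14% in either direction. The median gene called higher went from 0.848 CPM at L3 to 9.23 CPM at L10, and the median gene called lower from 10.1 to 1.88 CPM, where the median of all genes was 9.99 CPM at L3 and 9.41 CPM at L10. Of 2245 genes reaching a mean of 100 CPM in either group, 4 were called. These were *Pacsin2* (127 to 272 CPM), an adaptor of membrane curvature, *Slc20a2* (65.6 to 160 CPM), a phosphate transporter, *Phlpp1* (40.8 to 111 CPM), a phosphatase that acts on Akt, and *Fchsd2* (37.5 to 112 CPM), an F-BAR domain protein. They are named after their values were seen.

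The calls rested largely on L10 replicate 6. Without it, 34 genes were called higher and 7 lower, of which 14 and 3 were among the original calls. The lone L10 library is then assumed to vary like the other groups. Without L10 replicate 5, 295 were called higher and 447 lower. Replicate 6 was the lower of the L10 libraries in 96 of the 116 genes called lower, compared with 50.4% of all genes, and 27 of the 116 had no read in it. Replicate 6 was the higher in 64 of the 78 genes called higher. All 194 called genes kept their sign when each of the 5 basal libraries was left out in turn, and 8 genes called higher and 1 called lower kept their call in all 5 fits. The kept sign was fixed in advance for the 78 genes called higher and for 114 of the 116 called lower, whose groups do not overlap. With edgeR's quasi-likelihood test on the reads behind the values, 17 genes were called higher and 37 lower. When only the 5 basal libraries supplied the spread, limma called 0 genes, with 735 higher and 662 lower genes at an unadjusted p under 0.05. With the milk protein genes removed and each library rescaled to its remaining total, the split was 26 higher to 75 lower.

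**Figure D2:**
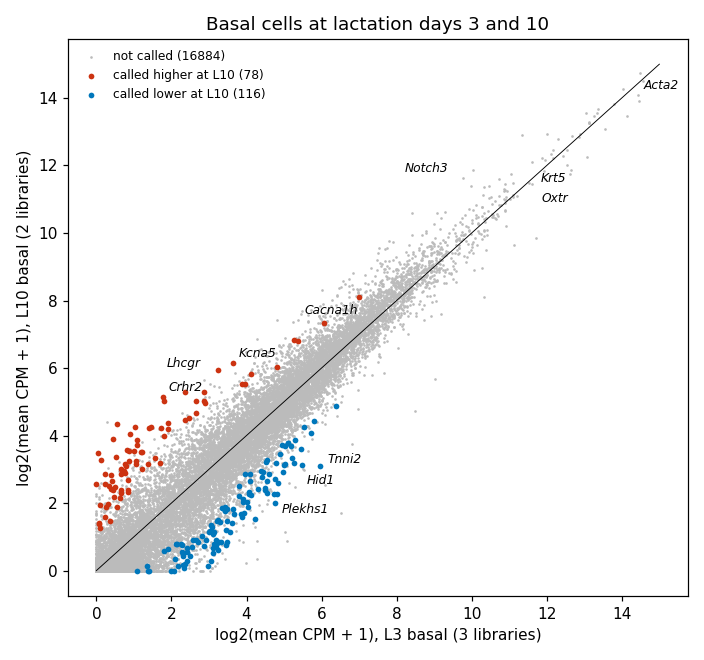
Mean level of each gene in basal cells at L3 (x) and L10 (y), as log2(mean CPM + 1), with genes called higher at L10 in red (78), called lower in blue (116) and all others in grey. Few called genes lie at high levels, and the contractile and keratin genes *Acta2*, *Krt5* and *Oxtr* sit near the line of equal level.

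Of the 12 named genes called higher at L10, the most abundant were a receptor and a potassium channel. *Lhcgr*, the receptor for luteinising hormone, was measured at 2.81, 15.99 and 6.77 CPM at L3 and at 46.6 and 73.6 CPM at L10. Both L10 libraries lie above all L3 libraries, and the log2 difference was 2.91 ± 0.51 (SE, adjusted p = 0.00085, limma). *Kcna5*, a voltage-gated potassium channel of smooth and cardiac muscle, had 9.71, 15.2 and 9.19 CPM at L3 and 64.2 and 75.03 CPM at L10 (log2 difference 2.54 ± 0.56, adjusted p = 0.0071). Its replicates lay close together within each time point. *Crhr2*, a receptor for urocortins of the corticotropin-releasing hormone family, rose from 1.12, 3.05 and 3.06 CPM to 16.6 and 51.7 CPM. Its log2 difference of 3.22 ± 0.53 was the largest among the genes called higher and named by the rule (adjusted p = 0.00048). None of these genes retained its call without L10 replicate 6, where the log2 differences were 2.58 for *Lhcgr*, 2.43 for *Kcna5* and 2.43 for *Crhr2*. With edgeR their adjusted p was 0.12, 0.17 and 0.070, and in the replicate 5 pair that shares a sort date the differences were 1.49, 2.01 and 2.12. In luminal cells *Lhcgr* and *Kcna5* remained under 1 CPM on average at both time points.

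The other genes named among those called higher had L3 values under 6 CPM in each library. *Ighm*, the immunoglobulin heavy chain of IgM and a product of B cells, had 0.401, 0 and 1.02 CPM at L3 and 2.80 and 36.0 CPM at L10, so that L10 replicate 6 supplied most of its level. *Ccl3*, a chemokine of macrophages and other leukocytes, had 0.0802, 2.03 and 2.78 CPM at L3 and 20.4 and 14.8 CPM at L10. *Gpsm3*, a modulator of G-protein signalling, had 2.17, 0.254 and 5.10 CPM at L3 and 6.11 and 57.4 CPM at L10. *Vil1*, the actin-bundling protein villin of microvilli, had 1.36, 1.52 and 0.186 CPM at L3 and 4.45 and 31.6 CPM at L10. *Lrrc73*, *Hsf2bp*, *Mfsd3*, *Synpo2l* (a cytoskeletal protein of striated muscle) and *Pard6a* (a component of the Par polarity complex) had log2 differences of 2.99, 2.81, 2.67, 2.64 and 2.53. In 8 of these 9 genes L10 replicate 6 was the higher L10 library, with *Ccl3* as the exception.

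Among the 12 genes named as called lower, *Tnni2*, the fast skeletal form of the inhibitory troponin subunit, fell from 96.0, 66.6 and 19.5 CPM at L3 to 12.6 and 2.66 CPM at L10 (log2 difference -2.86 ± 0.47, adjusted p = 0.00043). *Plekhs1*, a pleckstrin homology domain protein, had 33.2, 20.7 and 23.5 CPM at L3 and 7.34 and 0.380 CPM at L10 (-2.95 ± 0.48, adjusted p = 0.00040). *Hid1*, which acts in the sorting of secretory granule cargo, had 53.7, 38.1 and 38.9 CPM at L3 and 15.6 and 0 CPM at L10 (-3.43 ± 0.76, adjusted p = 0.0074). On the log2(CPM + 1) scale its largest gap is between the L10 libraries themselves. *Drp2*, a dystrophin-related protein, fell from 36.3, 28.04 and 16.7 CPM to 6.11 and 1.61 CPM. *Mogs*, the glucosidase that begins the trimming of N-glycans in the endoplasmic reticulum, went from 8.34, 11.4 and 12.4 CPM to 2.36 and 0.0950 CPM, and *Sftpd*, surfactant protein D, from 24.9, 7.36 and 20.9 CPM to 3.14 and 0.665 CPM. The others were *Prnd*, *Fam207a*, *Gtf2ird2*, *Aldh16a1*, *Sema6c* (a semaphorin) and *Gmpr* (GMP reductase), with log2 differences between -2.69 and -2.48. In all 12 the lower L10 library was replicate 6. In luminal cells the mean of *Sftpd* was 276 CPM at L3 and 119 CPM at L10, and that of *Hid1* 283 and 166 CPM. The luminal mean of *Plekhs1* rose, from 4.98 to 23.7 CPM. The part of luminal RNA in the falls of *Sftpd* and *Hid1* was not tested. The exons of *Prnd* are shared over 97.2% of their bases with the annotated gene Prn and those of *Fam207a* overlap a neighbour over 36.7%, and the amplification kit is not stated to mark strand, so their reads are uncertain. None of the 24 named genes kept its call without L10 replicate 6, and all kept their sign. That sign was fixed by the naming rule, which admits only genes whose L10 and L3 values do not overlap. With edgeR 21 of the 24 lost their call and *Fam207a*, *Gtf2ird2* and *Mogs* kept it, and with a pseudocount of 0.1 in limma 16 lost it.

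**Figure D3:**
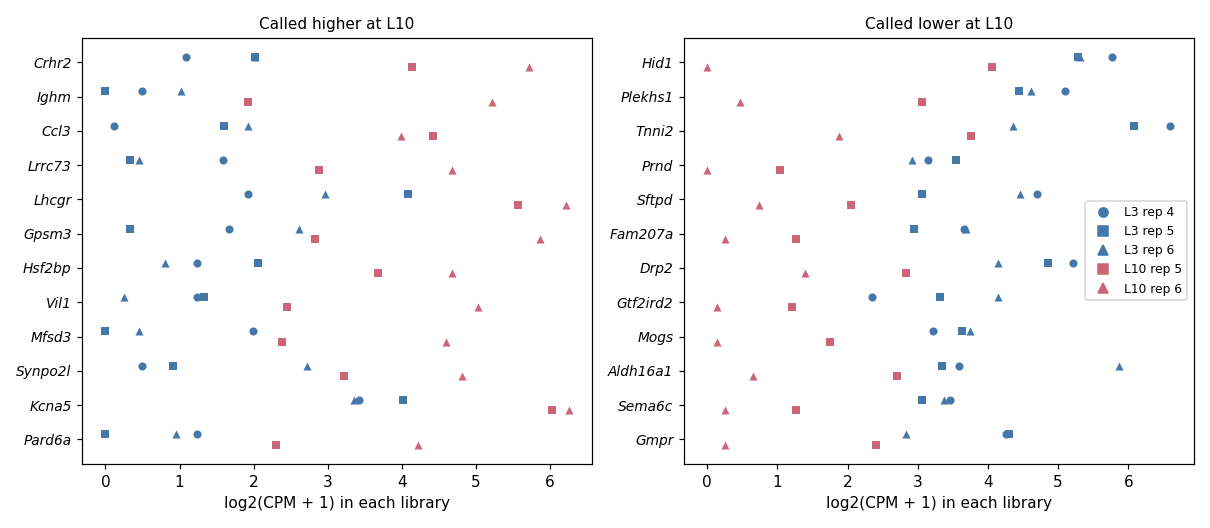
The 12 named genes called higher (left) and the 12 called lower (right) at L10, with log2(CPM + 1) of each library on the x axis (L3 blue, L10 red; circle, square and triangle for replicates 4, 5 and 6). L10 replicate 6, the red triangle, is the most extreme library for 11 of the 12 genes called higher and for all 12 called lower.

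The 9 genes whose call held in every fit that left out a basal library are given as chosen after their values were seen. Those called higher were *Myh8*, *Hfe2*, *Wdr95*, *Rtn4rl2*, *Asic4*, *Klhl30*, *BC043934* and *Rgs6*, and the one called lower was *Ddx56*. *Rtn4rl2*, a member of the Nogo receptor family, had 1.20, 0 and 0.928 CPM at L3 and 6.38 and 6.46 CPM at L10 (log2 difference 2.20 ± 0.23, adjusted p = 2.4e-07). *Klhl30*, a kelch-like protein, had 0.802, 1.65 and 0.742 CPM at L3 and 8.04 and 8.93 CPM at L10. *Rgs6*, a regulator of G-protein signalling, had 0.241, 1.52 and 2.23 CPM at L3 and 13.4 and 7.50 CPM at L10. *Myh8*, the perinatal myosin heavy chain of skeletal muscle, reached 1.40 and 1.42 CPM at L10 and at most 0.127 CPM at L3. *Ddx56*, a nucleolar RNA helicase, fell from 13.0, 4.06 and 6.96 CPM to 0.786 and 0.570 CPM. In each of the 9 genes the higher group averaged under 11 CPM.

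The machinery of contraction was examined from its structural proteins to its receptors. None of the 30 genes of the contractile apparatus was called, where 1.14% of all genes were called. Their median log2 difference was 0.04, with a range from -0.22 without L3 replicate 6 to 0.19 without L3 replicate 4. Their summed level was 126890, 131510 and 68786 CPM at L3 and 98274 and 115110 CPM at L10, so L3 replicate 6 was the low library and the time points overlap. *Mylk*, the kinase that activates smooth muscle myosin, was measured at 8712, 8718 and 5117 CPM at L3 and at 6807 and 8842 CPM at L10 (log2 difference 0.09 ± 0.65, adjusted p = 0.97). The members with the largest differences were *Myocd*, *Ldb3*, *Des* and *Pln*, and the reads of *Pln* are uncertain, since 64.7% of its exon bases are shared with other annotated genes. *Myocd*, the coactivator of smooth muscle genes, was measured at 38.0, 99.5 and 126 CPM at L3 and 283 and 384 CPM at L10 (log2 difference 2.06 ± 0.71, adjusted p = 0.092, not called). *Des*, the muscle intermediate filament desmin, was measured at 102, 254 and 262 CPM at L3 and 606 and 863 CPM at L10 (adjusted p = 0.12). Of the 30 genes, 6 had both L10 libraries above all L3 libraries and 1 had both below, where 12.2% and 12.9% of all genes did so.

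Of the 38 genes for contraction receptors and calcium signalling, 1 was called higher (0.457% of all genes) and none lower (0.679%), and the median log2 difference was 0.64. It was 0.37 without L10 replicate 6, 0.41 without L3 replicate 6 and 0.16 in the replicate 5 pair that shares a sort date. *Adra1b*, the alpha-1B adrenergic receptor for noradrenaline, rose from 2.41, 4.95 and 11.8 CPM at L3 to 21.0 and 38.8 CPM at L10 (log2 difference 2.21 ± 0.40, adjusted p = 0.00090). It is also among the 22 genes that the study names in lactating basal cells, of which 21 were not called. The study reports it for lactation, a stage that joins L3 and L10. Its call was lost without L10 replicate 6 (1.79, adjusted p = 0.080), without L3 replicate 4 and with edgeR (adjusted p = 0.17). *Cacna1h*, a T-type calcium channel, was measured at 15.1, 55.6 and 50.5 CPM at L3 and at 135 and 208 CPM at L10 (2.22 ± 0.60, adjusted p = 0.027, not called). *P2rx1*, an ATP-gated channel of smooth muscle, had 32.4, 39.6 and 38.7 CPM at L3 and 130 and 195 CPM at L10 (2.09 ± 0.68, adjusted p = 0.073). *Avpr1a*, the vasopressin receptor, had 43.6, 106 and 131 CPM at L3 and 326 and 435 CPM at L10 (adjusted p = 0.10), and *Ednrb*, an endothelin receptor, 29.8, 52.9 and 62.7 CPM at L3 and 207 and 173 CPM at L10 (adjusted p = 0.094). In 13 of the 38 genes both L10 libraries lay above all L3 libraries (12.2% of all genes) and in 3 both lay below (12.9%).

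Many of these receptors and channels are also genes of vascular smooth muscle and pericytes, the contractile cells of small vessels. The lineage depletion did not include a marker of these cells. All 12 genes of the pericyte and vascular smooth muscle list were in the table and above 0 in each library, and their summed level was 2065, 4691 and 8215 CPM at L3 and 10062 and 17268 CPM at L10. *Rgs5*, a regulator of G-protein signalling in pericytes and the most abundant gene of the list, had 933, 2086 and 4749 CPM at L3 and 5321 and 9895 CPM at L10. None of the 12 was called (1.14% of all genes were), and 7 had both L10 libraries above all L3 libraries (12.2%). The median log2 difference was 1.35, or 0.82 without L3 replicate 4. The list therefore ordered the 5 libraries as L3 replicates 4, 5 and 6 followed by L10 replicates 5 and 6. The same order of levels was found for 1.83% of all genes. It was found for 7 of the 38 contraction receptor and calcium genes and 2 of the 30 contractile genes. Of the 35 channel genes 2 had it, and 1 of the 35 is also in the pericyte list and helped to set the order. Among the 12 genes of the list itself it was found for 4, from which nothing is read, since their sum set the order. It was also found for 11 of the 78 genes called higher, from which nothing is read, since these were selected for higher values at L10. In these bulk libraries more cells of a type and more RNA per cell cannot be told apart, and the part of the vessel genes in the results for *Adra1b*, *Cacna1h*, *Kcna5* and their like was not tested.

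Of the other cell types examined, the adipocyte sum ran in the same order of libraries and the rest did not. The 16 endothelial genes summed to 1202, 1269 and 2079 CPM at L3 and 1916 and 1037 CPM at L10, with *Cdh5* the most abundant and none at 0. The 15 fibroblast genes summed to 844, 1455 and 6326 CPM at L3 and 1534 and 1944 CPM at L10, led by *Col1a1*, so L3 replicate 6 was the high library. The 15 immune genes measured summed to 51.9, 32.1 and 95.0 CPM at L3 and 150 and 23.7 CPM at L10, with *Cd3e* the most abundant over the 5 libraries, and 7 of them were at 0 in L10 replicate 6, the macrophage genes *Cd68* and *Aif1* included. *Ptprc*, the gene of CD45, was at 1.33 CPM in that library and at 20.2 CPM in L3 replicate 6. The part of immune cells in the results for *Ighm* and *Ccl3* was not tested. The 9 adipocyte genes measured summed to 730, 810 and 1449 CPM at L3 and 1544 and 1694 CPM at L10, with *Fabp4* the most abundant and none at 0, and their part in the results was not tested. The 4 erythroid genes measured stayed between 44.1 and 71.9 CPM, and the 9 skeletal muscle genes measured summed to 171, 165 and 109 CPM at L3 and 144 and 62.1 CPM at L10, with *Tnni2* the most abundant over the 5 libraries and 1 gene at 0 in each.

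**Figure D4:**
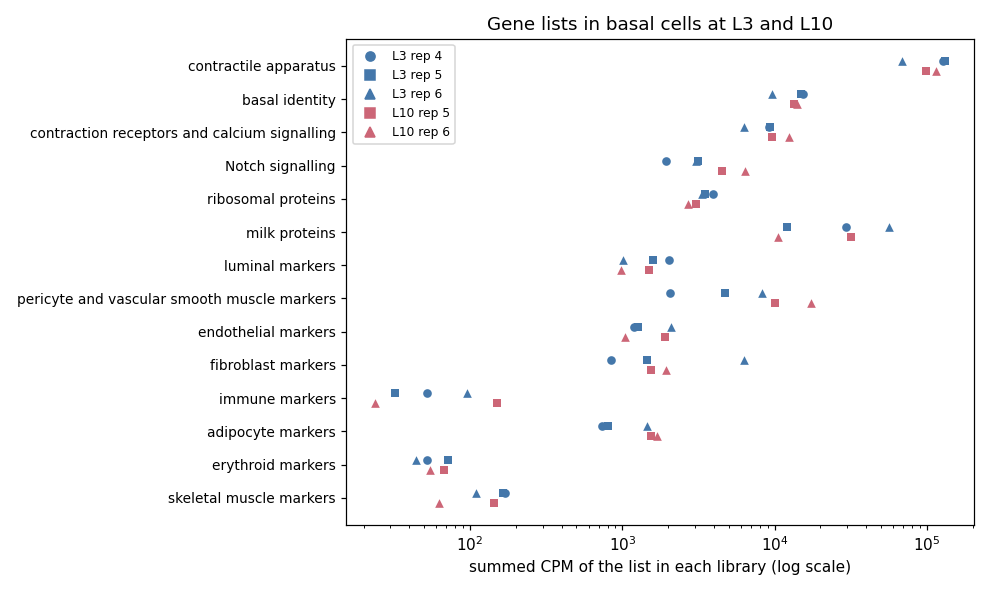
Summed CPM (log axis) of gene lists in each basal library at L3 (blue) and L10 (red), with circle, square and triangle for replicates 4, 5 and 6. The pericyte and vascular smooth muscle list runs from 2065 CPM in L3 replicate 4 to 17268 CPM in L10 replicate 6, and the contractile and basal identity lists overlap between the time points.

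In Notch signalling a ligand on one cell activates a receptor on its neighbour. The same order of libraries was found in 4 of its 20 genes (1.83% of all genes). Nothing is read from this count, since 2 of the 20 are also in the vessel list, whose sum set the order. The receptor *Notch3* was measured at 301, 1003 and 1298 CPM at L3 and at 2342 and 3984 CPM at L10 (log2 difference 2.06 ± 0.54, adjusted p = 0.022, not called). The target genes *Nrarp* (adjusted p = 0.074), *Hey2* (0.19) and *Heyl* (0.21) had log2 differences of 1.95, 1.80 and 1.45, and 79.4% of the exon bases of *Nrarp* are shared with another annotated gene, so its reads are uncertain. *Heyl*, for instance, was measured at 50.5, 173 and 151 CPM at L3 and at 312 and 293 CPM at L10. The basal ligands *Jag1*, *Jag2* and *Dll1* had log2 differences of 0.51, -0.36 and -0.70, none called. No gene of the list was called (1.14% of all genes were). In 8 of the 20 both L10 libraries were above all L3 libraries (12.2% of all genes).

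Among the 8 time points, *Lhcgr*, *Kcna5*, *Crhr2*, *Adra1b*, *Notch3* and *Cacna1h* had their highest basal mean at L10. *Avpr1a* was higher at 2 days of involution (796 CPM) than at L10 (381 CPM). These genes were named for their rise from L3 to L10, which favours a highest mean at L10. *Lhcgr* was at or under 0.413 CPM on average at 10 weeks and 4 months of age (W10 and M4), at pregnancy days 3.5 and 14.5 (P3.5 and P14.5) and 4 weeks into involution (Iw4). It averaged 8.52 ± 6.76 CPM (SD, n = 3) at L3, 60.1 ± 19.1 CPM (n = 2) at L10 and 7.35 ± 10.3 CPM (n = 3) after 2 days of involution (Id2). *Kcna5* followed the same course, with 1.01 CPM at P14.5, 11.4 ± 3.35 CPM at L3, 69.6 ± 7.65 CPM at L10 and 10.5 ± 12.4 CPM at Id2. *Adra1b*, with its highest mean at L10 as well, averaged 0.599 CPM at P14.5, 6.38 CPM at L3, 29.9 CPM at L10 and 4.56 CPM at Id2. *Notch3* was already at 174 ± 6.25 CPM at P14.5 and went from 867 ± 512 CPM at L3 to 3163 ± 1161 CPM at L10. *Tnni2*, by contrast, was measured above 1 CPM on average only at L3 (60.7 ± 38.6 CPM) and L10 (7.62 ± 7.01 CPM) among the 8 basal time points. The vessel list had a like course, with 191 ± 18.8 CPM at W10, 1425 ± 137 CPM at P14.5, 4990 ± 3090 CPM at L3, 13670 ± 5100 CPM at L10, 6113 ± 5180 CPM at Id2 and 363 ± 136 CPM at Iw4. No test was made between the other time points.

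**Figure D5:**
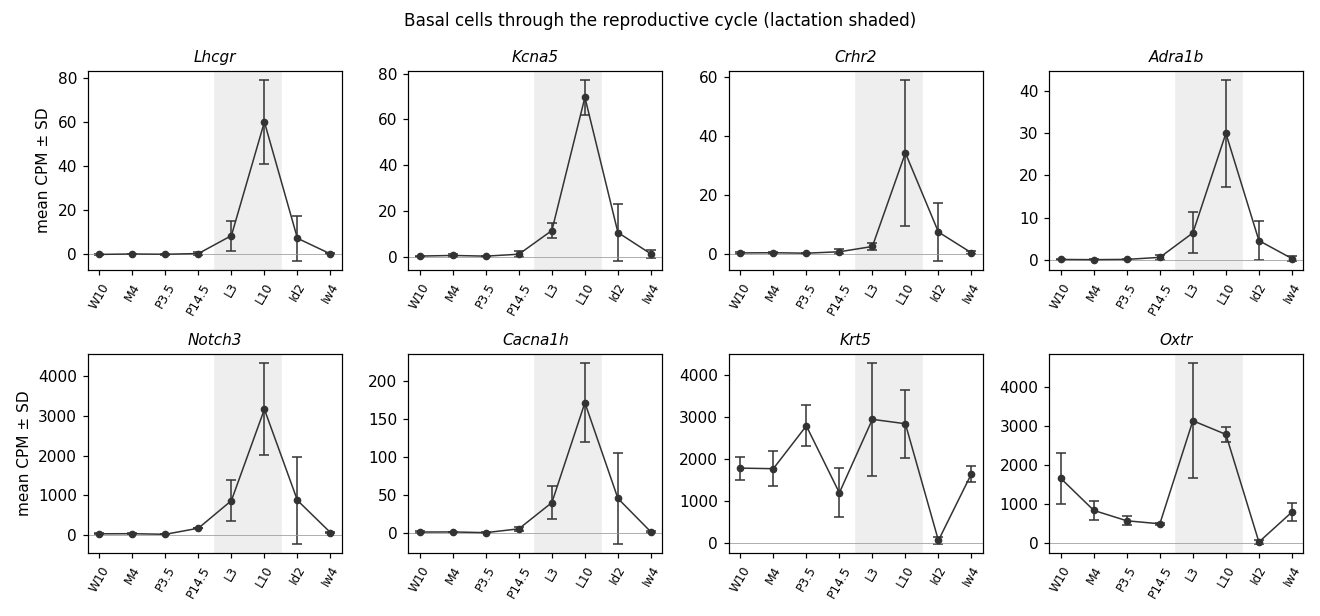
Mean CPM ± SD of 8 genes in basal cells at the 8 time points (2 libraries at P14.5 and L10, 3 at the others; lactation shaded). *Lhcgr*, *Kcna5*, *Crhr2*, *Adra1b*, *Notch3* and *Cacna1h* have their highest mean at L10, which is favoured by naming them for a rise from L3. *Krt5* and *Oxtr* overlap between L3 and L10 and have their lowest mean at Id2.

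For *Lhcgr*, *Kcna5*, *Crhr2*, *Notch3* and *Adra1b*, which shared this course, the 250 bases before their start sites are shown. The genes were chosen after their values were seen. The sequences are from RefSeq on GRCm38.p6, a later build than the one the reads were aligned to, and 18 of the 24 named genes had an entry in that table. *Adra1b* had 2 start sites in the table. All of these stretches lie on the minus strand and are written 5′ to 3′ in the direction of transcription. Capitals mark matches on either strand to the motifs searched, GGGCGG (GC box), CCAAT, TGACGTCA (cyclic AMP response element), TGANTCA (AP-1), GTGGGAA (the core bound by the Notch effector RBPJ) and the CArG box of serum response factor. The stretches are *Lhcgr* at chr17:88792015-88792264, *Kcna5* at chr6:126535556-126535805, *Crhr2* at chr6:55133017-55133266, *Notch3* at chr17:32166891-32167140 and *Adra1b* at chr11:43901238-43901487 (start 1) and chr11:43836490-43836739 (start 2).
Lhcgr: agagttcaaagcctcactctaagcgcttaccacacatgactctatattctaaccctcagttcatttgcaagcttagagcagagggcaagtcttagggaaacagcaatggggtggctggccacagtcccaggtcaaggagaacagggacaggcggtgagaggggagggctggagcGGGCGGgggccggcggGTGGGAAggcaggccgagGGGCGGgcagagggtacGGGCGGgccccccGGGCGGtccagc
Kcna5: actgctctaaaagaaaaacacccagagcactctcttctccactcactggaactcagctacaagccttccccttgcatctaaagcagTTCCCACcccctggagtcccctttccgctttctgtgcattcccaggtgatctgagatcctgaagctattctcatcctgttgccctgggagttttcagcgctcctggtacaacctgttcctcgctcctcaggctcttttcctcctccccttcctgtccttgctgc
Crhr2: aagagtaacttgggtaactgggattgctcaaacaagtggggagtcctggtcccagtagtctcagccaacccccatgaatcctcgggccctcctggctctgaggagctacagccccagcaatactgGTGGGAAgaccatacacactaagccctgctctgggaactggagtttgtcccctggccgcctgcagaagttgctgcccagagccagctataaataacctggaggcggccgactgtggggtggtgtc
Notch3: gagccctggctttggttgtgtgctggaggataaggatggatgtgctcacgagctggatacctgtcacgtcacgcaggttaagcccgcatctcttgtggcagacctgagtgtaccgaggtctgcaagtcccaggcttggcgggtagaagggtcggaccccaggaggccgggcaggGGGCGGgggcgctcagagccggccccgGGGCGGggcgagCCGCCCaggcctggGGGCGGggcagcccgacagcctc
Adra1b start 1: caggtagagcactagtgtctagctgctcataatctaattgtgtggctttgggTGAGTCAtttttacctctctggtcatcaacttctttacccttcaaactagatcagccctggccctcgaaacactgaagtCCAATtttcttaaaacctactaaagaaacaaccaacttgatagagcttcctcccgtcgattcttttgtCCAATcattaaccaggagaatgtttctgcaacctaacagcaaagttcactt
Adra1b start 2: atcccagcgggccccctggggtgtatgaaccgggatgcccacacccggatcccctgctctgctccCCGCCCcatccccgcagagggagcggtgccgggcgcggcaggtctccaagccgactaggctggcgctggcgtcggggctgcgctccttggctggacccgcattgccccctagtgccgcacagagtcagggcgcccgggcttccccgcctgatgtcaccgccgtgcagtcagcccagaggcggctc

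*Lhcgr* and *Notch3* each held 4 copies of the GC box in this window, a motif found in 32.74% of the 32851 promoter windows of the table. A single RBPJ core stood in each of *Lhcgr*, *Kcna5* and *Crhr2*, on the minus strand of the printed sequence in *Kcna5*, and 5.42% of windows held one. Neither *Notch3* nor *Adra1b* held that motif. Start 1 of *Adra1b* held 2 copies of CCAAT and 1 AP-1 motif, whose palindromic match reads on both strands, and start 2 held 1 GC box. CCAAT was present in 33.85% of all windows, the AP-1 motif in 6.75%, the cyclic AMP response element in 1.55% and the CArG box in 1.47%, and the last 2 had no match in these stretches. No matches to different motifs overlap. A match describes letters and not binding.

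Groups of genes with roles in protein synthesis, secretion and stress were then described. Of 37 ribosomal protein genes measured, none was called (1.14% of all genes were). In 21 of them both L10 libraries lay below all L3 libraries and in none both lay above (12.9% and 12.2% of all genes). Their median log2 difference was -0.47. Their sum was 3931, 3510 and 3346 CPM at L3 and 3027 and 2705 CPM at L10. *Rps9*, of the small subunit, was measured at 207, 187 and 213 CPM at L3 and at 116 and 101 CPM at L10 (-0.90 ± 0.32, adjusted p = 0.11). *Rplp1*, of the large subunit stalk, was measured at 65.9, 46.7 and 54.3 CPM at L3 and at 31.6 and 30.3 CPM at L10. The median of the list was -0.25 in the replicate 5 pair that shares a sort date, and lay between -0.60 and -0.38 when fitted under the other alternatives.

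Milk protein transcripts, the products of luminal cells, took up 2.61%, 0.995% and 5.46% of the reads at L3 and 2.76% and 0.800% at L10. None of the 19 genes was called (1.14% of all genes were). The time points overlap in the sum of the list, which was lowest in L10 replicate 6 and highest in L3 replicate 6. *Spp1*, osteopontin, had the largest difference, with 369, 93.0 and 614 CPM at L3 and 34.9 and 16.6 CPM at L10 (-3.47 ± 1.00, adjusted p = 0.039). Its luminal mean was 10243 CPM at L3 and 2152 CPM at L10. *Wap* went in the same direction, with 836, 310 and 2671 CPM at L3 and 289 and 256 CPM at L10 (adjusted p = 0.46), and a luminal mean of 53810 and 10042 CPM. The part of luminal RNA in these values was not tested. The 23 luminal markers summed to 2026, 1594 and 1013 CPM at L3 and 1490 and 987 CPM at L10. None of them was called, beside the same 1.14% of all genes.

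Immediate-early and heat-shock genes, which respond within minutes to stimuli that include tissue dissociation, were abundant at both times. Their sum was 36881, 46329 and 44502 CPM at L3 and 50080 and 64768 CPM at L10, with the transcription factor *Egr1* the most abundant. None of the 40 genes was called (1.14% of all genes were), and in 15 both L10 libraries were above all L3 libraries (12.2%). The median log2 difference was 0.41, or 0.04 in the replicate 5 pair that shares a sort date. *Fosl2*, an AP-1 subunit, was measured at 452, 588 and 838 CPM at L3 and at 1324 and 1794 CPM at L10 (1.35 ± 0.35, adjusted p = 0.023). *Nr4a3*, an orphan nuclear receptor, was measured at 96.2, 248 and 164 CPM at L3 and at 430 and 420 CPM at L10 (adjusted p = 0.28).

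Lists of growth factor, adhesion and receptor genes were described in the same way. None of the 25 genes measured in the insulin and IGF list was called (1.14% of all genes were). In 5 of the 25 both L10 libraries lay above all L3 libraries and in none both lay below (12.2% and 12.9% of all genes). *Igf2*, insulin-like growth factor 2, was measured at 232, 526 and 257 CPM at L3 and at 1790 and 1324 CPM at L10 (2.28 ± 0.83, adjusted p = 0.12), although 64.5% of its exon bases are shared with other annotated genes. *Igf1r* and *Insr*, receptors for IGF1 and insulin, had log2 differences of 0.10 and 0.08 (adjusted p = 0.95 and 0.97). None of the 44 genes of the basement membrane and cell-matrix adhesion was called. Both L10 libraries lay above all L3 libraries in 10 of the 44 and below in 3. *Lama1*, a laminin chain, was measured at 1242, 1112 and 843 CPM at L3 and at 477 and 469 CPM at L10 (-1.15 ± 0.46, adjusted p = 0.15), and *Itgb1*, the sorting marker CD29, at 779, 860 and 777 CPM and at 828 and 946 CPM. Of the 9 genes of the lysophosphatidic acid axis, the receptors *Lpar2* and *Lpar6* had log2 differences of -2.09 ± 0.49 (adjusted p = 0.011) and -1.87 ± 0.57 (adjusted p = 0.051). *Lpar2* was at 16.8, 5.33 and 5.57 CPM at L3 and at 3.49 and 0 CPM at L10, so its lowest value is in the library with the most genes at 0. *Ngfr*, the p75 neurotrophin receptor, was measured at 5.13, 18.8 and 18.4 CPM at L3 and 3.58 and 0.475 CPM at L10 (adjusted p = 0.011). *Ephb2*, an ephrin receptor, was measured at 22.3, 27.0 and 21.2 CPM and at 6.90 and 1.71 CPM (adjusted p = 0.041). Neither was called, and the lists of 16 neural genes and 40 axon guidance and ephrin genes held no called gene. The lowest value of both genes is also in L10 replicate 6. Over the 41 lists, 994 genes were measured and 3 were called, *Adra1b* and *Tnni2* among them, which is 0.302% against 1.14% of all genes.

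Lists for the matrix, growth control and metabolism held no called gene (1.14% of all genes were called). Their median log2 differences were 0.065 for 31 fibrillar collagen genes, 0.33 for 28 matrix proteases and inhibitors, -0.05 for 37 junction genes, -0.02 for 38 lipid synthesis genes, -0.17 for 40 cell cycle genes and 0.07 for 28 genes of endoplasmic reticulum stress. For signalling they were -0.13 over 43 Wnt genes, -0.003 over 41 TGF-beta and BMP genes, 0.19 over 23 YAP and stretch-response genes and -0.36 over 14 EGF family genes. In 6 of these 10 lists the sign of the median turned when 1 basal library was left out, the exceptions being the proteases, endoplasmic reticulum stress, Wnt and YAP lists. The cell cycle median went from -0.62 without L10 replicate 5 to 0.24 without L10 replicate 6, that of the EGF family from -0.56 to 0.13 and that of the junction genes from -0.38 to 0.12. The YAP list ranged from 0.07 without L3 replicate 6 to 0.39 without L10 replicate 5, so no direction is read from these medians. *Col9a2*, a chain of type IX collagen, was measured at 37.06, 29.4 and 22.3 CPM at L3 and at 5.15 and 14.5 CPM at L10 (-1.62 ± 0.44, adjusted p = 0.029). *Nrg1*, the ligand neuregulin 1, had 395, 359 and 195 CPM at L3 and 137 and 121 CPM at L10 (adjusted p = 0.37), and *Erbb2*, a receptor of the EGF family, 36.9, 34.0 and 32.1 CPM at L3 and 41.1 and 84.1 CPM at L10 (adjusted p = 0.047). In both genes the L10 libraries lie on one side of all L3 libraries. *Il13ra1*, a receptor chain for interleukin 13, was measured at 23.7, 31.2 and 30.6 CPM at L3 and at 69.0 and 109 CPM at L10 (1.58 ± 0.47, adjusted p = 0.044). *Scd1*, a desaturase of fatty acid synthesis that luminal cells express highly, was at 601, 280 and 851 CPM at L3 and at 168 and 218 CPM at L10 (adjusted p = 0.12).

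The final comparison asked whether basal and luminal cells changed differently from L3 to L10, by the difference of the changes in the same model. The change in basal cells was called higher than that in luminal cells for 18 genes (0.105% of those tested) and lower for 48 genes (0.281%). With the sort date as a block, which pairs basal and luminal libraries of the same sort, 47 were called higher and 95 lower. Of the 18, 15 were also called higher in basal cells, and of the 48, 17 were called lower in basal cells. In 25 of the 48 genes the libraries separated in opposite directions, with both L10 basal libraries below all L3 basal libraries and all L10 luminal libraries above all L3 luminal libraries. The selection favours such genes, and 0.802% of all genes separated in this way. *Plekhs1* was the largest of these, with basal values as above and luminal values of 4.15, 6.59 and 4.21 CPM at L3 and 19.96, 32.04 and 19.2 CPM at L10 (difference of log2 changes -4.99, adjusted p = 0.000050). *Krt23*, a keratin, was measured in basal cells at 62.1, 56.8 and 26.5 CPM at L3 and at 16.8 and 4.37 CPM at L10. In luminal cells it was measured at 0.721, 1.41 and 0 CPM at L3 and at 2.00, 8.41 and 12.8 CPM at L10 (-4.43, adjusted p = 0.0032). *Cit*, citron kinase of cytokinesis, had a difference of -4.70. In luminal libraries 3 reads corresponded to 0.353 to 1.05 CPM at L3 and 0.217 to 0.399 CPM at L10. The luminal *Krt23* values of 0.721 and 0 CPM at L3 lie at or near that limit. Milk protein genes took 33.5% to 68.1% of the luminal reads at L3 and 21.6% to 37.5% at L10. Their part in the luminal changes was not tested.

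On the other side, *Edem2*, which acts in the disposal of misfolded glycoproteins, rose in basal cells from 12.0, 15.9 and 15.96 CPM to 37.6 and 52.3 CPM. In luminal cells it was measured at 42.2, 26.8 and 36.5 CPM at L3 and at 22.8, 13.7 and 15.5 CPM at L10 (difference of log2 changes 2.54, adjusted p = 0.0037). *Mmab*, an enzyme of cobalamin metabolism, had a difference of 3.54, with 6.42, 10.3 and 5.29 CPM at L3 and 24.3 and 20.8 CPM at L10 in basal cells and a luminal mean of 13.1 and 3.08 CPM. *Crhr2* (3.68) and *Lrrc73* (3.83) had luminal means under 1.5 CPM on both days. The differences for *Lhcgr* (2.67, adjusted p = 0.033), *Adra1b* (1.95, adjusted p = 0.043) and *Kcna5* (2.42, adjusted p = 0.081) did not pass the threshold. Without L10 basal replicate 6, 7 genes were called higher and 5 lower, *Klhl30* and *Plekhs1* among them.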

How the data were processed

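RNA of sorted cells was amplified and sequenced by the authors, who aligned the reads with GSNAP (mouse genome, mm9), counted them per gene with HTSeq and normalised with edgeR, removing genes under 1 CPM in 3 samples and very abundant genes of low variability. The deposited values are this signal in CPM, and all columns were used. Each value is a whole multiple of 1 read's worth (100% of values within 0.02 of a whole number), so reads were recovered. Pools were treated as replicates. Gene names were matched for 16897 of 17078 identifiers.

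limma 3.58.1 (R 4.3.3, mean-variance trend) was fitted to log2(CPM + 1) with 16 condition means over 46 libraries, and this scale understates changes of low genes. Named genes are, in each direction, the 12 called genes with the largest change, no overlap and a mean of at least 5 CPM in the higher group, without predicted or RIKEN symbols; the 6 such genes in each direction for the difference between cell types; up to 4 members with the largest change of each list; defining markers; and genes that the study names. A few others, such as the most abundant or familiar members of a list, were added after their values were seen. The time points, lists and tests were chosen with earlier results of these data known. edgeR 4.0.16 and DESeq2 1.42.0 were run on 45 libraries, since the recovered reads of a W10 luminal library could not be checked. Basal and luminal libraries with the same number and day share a sort date in the labels, and their deviations from the group means correlated at 0.116, 0.042 and 0.147 for L3 replicates 4 to 6 and at 0.076 and 0.06 for L10 replicates 5 and 6; a fit with sort date as a block was an alternative. Scripts were tested on simulated data. One P14.5 basal library of the 47 described was not analysed here, and some genes that the rule names are not reported here.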

Additional observations from a re-analysis of the deposited data

Results flagged for a closer look

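Differences between the cell types in the change from L3 to L10 passed the test (limma, FDR under 0.01) with a higher basal change for 18 genes and a lower one for 48. The differences of log2 changes, basal minus luminal, were 3.83 for *Lrrc73*, 3.68 for *Crhr2*, 3.54 for *Mmab*, 3.39 for *Map3k15*, 2.54 for *Edem2* and 2.51 for *Klhl30*. On the lower side they were -4.99 for *Plekhs1*, -4.70 for *Cit*, -4.43 for *Krt23*, -3.67 for *Irf5*, -3.27 for *Wdcp*, -3.26 for *Fam207a* and -2.82 for *Col9a2*, a chain of type IX collagen. For the 18 genes both L10 basal libraries lay above all L3 basal libraries, and for 42 of the 48 both lay below, which 12.2% and 12.9% of all genes did; choosing genes by the difference between cell types favours such separation. Groups of 2 or 3 libraries were too small to look for single outlying values within a group.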

How the results depend on the processing

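The numbers of called genes depended on the processing, and no single gene named as called changed sign under any alternative. Of the 24 genes named for the basal comparison, 21 lost their call with edgeR, 16 with a pseudocount of 0.1 and 10 with DESeq2, and in the replicate 5 pair that shares a sort date the value of 10 moved by more than the spread between replicates. In basal cells the 78 higher and 116 lower calls became 18 and 135 with a pseudocount of 0.1. They became 26 and 75 without milk protein genes, 17 and 37 with edgeR, and 251 and 391 at an FDR under 0.05. DESeq2 called 113 higher and 255 lower, of which 34 and 83 were among the original calls. For the basal minus luminal change the 18 higher and 48 lower calls became 6 and 46 with a pseudocount of 0.1. They became 11 and 51 without milk protein genes, 6 and 21 with edgeR, and 78 and 143 with DESeq2. At an FDR under 0.05 they were 106 and 218. Using the spread of the compared libraries only, limma gave 0 calls in each direction, with 517 higher and 801 lower differences between cell types at an unadjusted p under 0.05. The cause was not tested.

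With sort date as a replicate block (consensus correlation 0.147) the difference between cell types gave 47 higher and 95 lower calls, and the basal comparison 100 and 153. With the replicate number as a block in the lactation libraries, 0 genes were called in either comparison, with 760 higher and 881 lower basal genes at an unadjusted p under 0.05; this fit used the 11 lactation libraries only. Deviations of same-numbered L3 and L10 basal libraries did not move together (correlations -0.062 and -0.013).

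Leaving out 1 library at a time gave 34 to 295 higher and 7 to 447 lower basal calls, the extremes without L10 replicates 6 and 5. Without L3 replicate 4, 45 were higher. For the difference between cell types the ranges were 7 to 156 higher and 5 to 301 lower. These counts also moved by over 1.5 times without L3 basal replicate 4 (10 and 20) or 6 (40 and 76), without L3 luminal replicate 4 (9 and 16) or 5 (41 and 76), and on the higher side without L10 luminal replicate 5 (30). Each basal library held at least 9625119 reads, and L10 had 2 libraries. When 1 basal library was left out, the median log2 difference turned its sign in 21 of the 41 lists. That of the milk protein list went from -0.45 to 0.14 without replicate 6 and to -1.28 without replicate 5.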

Other observations

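Transcripts of genes called lower at L10 had a median length of 3330 bases and a median GC content of 50.7%, those of genes called higher 2834 bases and 52.9%, and all genes 3046 bases and 49.8% (longest annotated transcript). The 884 genes with no read in L10 replicate 6 but reads in the other 4 basal libraries had a median length of 2291 bases. None of the 35 genes measured in the potassium and sodium channel list, which does not hold *Kcna5*, was called (1.14% of all genes were). Of the 35, 7 had both L10 libraries above all L3 libraries (12.2% of all genes). *Kcnk3*, a background potassium channel, was measured at 10.6, 70.9 and 58.1 CPM at L3 and 105 and 167 CPM at L10 (adjusted p = 0.12, limma). *Hoxc8*, a patterning factor of the trunk, was at 0.642, 2.03 and 9.19 CPM at L3 and 13.98 and 12.8 CPM at L10 (adjusted p = 0.044). *Il6*, a cytokine, was at 49.2, 136 and 109 CPM at L3 and 347 and 367 CPM at L10 (adjusted p = 0.11).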
